A study of Mus musculus with 6 samples.

Results

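The proteasome and immunoproteasome subunits of mouse bone marrow haematopoietic stem cells (HSCs) were read from 6 two-colour microarrays. Members were all non-control probes whose RefSeq accession maps to a gene symbol beginning with Psma, Psmb, Psmc, Psmd, Psme, Psmf or Psmg. The rule took 62 of 55681 probes, on 71 spots, for 50 gene symbols, and no measured value entered it. Each array carried, in the Cy5 channel, HSCs of the labelled genotype CDK6-/- and, in the Cy3 channel, a pool of sorted wild-type HSCs given the same treatment. Of the arrays, 3 compared untreated CDK6-/- HSCs with the untreated wild-type pool, and 3 compared CDK6-/- HSCs after polyI:C with the polyI:C-treated wild-type pool. The labels used here give no strain, age, sorting markers, polyI:C dose or time after injection.

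CDK6 is a kinase that drives cells through the first gap phase of the cell cycle, and polyI:C is a synthetic double-stranded RNA that sets off type I interferon release and brings resting HSCs into cycle. The CDK6-/- samples are labelled as biological replicates, whereas each wild-type pool is 1 sample hybridised 3 times. The spread of a pool over its arrays is therefore technical, wild-type mice enter no test as separate animals, and dyes were not swapped. Cdk6 itself was read by 1 probe, and it is not known whether the deletion removes its target. The log2 ratio there was 0.40, -0.41 and 0.24 on the untreated arrays, where neither channel was above background, and -0.26, -0.44 and -1.28 on the polyI:C arrays. After polyI:C the probe was above background in Cy5 and Cy3 on all 3 arrays, and so in the samples labelled CDK6-/-, and it does not check the genotype labels.

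The proteasome is the barrel-shaped protease that degrades ubiquitin-tagged proteins. Its 20S core is built of alpha and beta rings, and the beta subunits Psmb5, Psmb6 and Psmb7 carry the proteolytic sites. The 19S cap recognises ubiquitin, unfolds the substrate with a ring of ATPases (Psmc) and removes ubiquitin with the help of the non-ATPase subunits (Psmd). Interferons induce Psmb8, Psmb9 and Psmb10, which replace Psmb5, Psmb6 and Psmb7 in newly made cores to form the immunoproteasome, and they also induce the PA28 activator (Psme1 and Psme2). Immunoproteasomes shape the peptides shown on MHC class I, and blood cells carry them even without an infection.

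No probe mapped to Psme2, which is not analysed here. The 3 probes that mapped to Psme2b, a near-identical intronless copy of Psme2 on chromosome 11, may read RNA of both genes, which was not tested here, and Psme2b is reported on its own. The inducible set was therefore measured by 4 genes, Psmb8 and Psmb9 (both on chromosome 17), Psmb10 (chromosome 8) and Psme1 (chromosome 14). It was set against 31 constitutive subunits of the 20S core and the 19S cap. The prefix also took Psmc3ip, a recombination factor, and Psme3ip1, a partner of Psme3, neither of which is a proteasome subunit. By number of probes, 39 symbols had 1, 10 had 2 and 1 had 3.

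Member probes were bright. In 59 of the 62, both channels were above background on all 6 arrays. After the filter for signal above background, 60 probes of 48 genes remained for testing, among 22630 genes in all. The median member stood at percentile 87.5 of all genes tested by mean intensity. The 2 symbols left out were Psma8, the testis form of an alpha subunit, and Psmb11, the beta subunit of thymic epithelium. For the genes with several probes, the brightest tested probe stood for the gene.

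The arrays differed in ways that touch the values below. Between 47.0% and 55.7% of spots were above background in Cy5 on 5 arrays, against 76.5% on polyI:C array 3, which was also alone on its slide. Slide 1 held untreated arrays 1 and 3 with polyI:C array 1, and slide 2 held untreated array 2 with polyI:C array 2. RNA integrity numbers ran from 5.3 to 8.9 per the labels, with no value tied to a sample. All 10 HSC and progenitor markers (Kit, Ly6a, Procr and others) were above background in every group of arrays. Their median difference from the untreated mean on polyI:C arrays 1, 2 and 3 was -0.73, -0.48 and -1.87 in CDK6-/- samples. In the pool it was -0.40, -0.55 and -1.29. By mean signal, 7 of the 10 were lower and 3 higher after polyI:C in CDK6-/- samples. Markers of other blood cells were present too. Of 8 T and NK cell markers, 3 were above background in untreated and 7 in polyI:C samples of both genotypes, and their summed log2 signal in CDK6-/- samples went from 12.13-12.66 to 13.78-13.90. All 4 megakaryocyte markers were above background in every group, and their summed signal in CDK6-/- samples went from 11.81-13.38 to 14.89-15.20. In the pool the T and NK cell markers went from 12.52-12.98 to 13.88-14.26. The megakaryocyte markers went from 12.88-12.96 to 14.47-14.76 there. The 7 granulocyte markers summed to 18.04-18.54 in the untreated and 15.99-16.42 in the polyI:C wild-type pool. In CDK6-/- samples they summed to 16.99-17.66 untreated and 17.05-17.40 after polyI:C. The part of these markers in the results was not tested. A lower share of cells of one type and less RNA per cell cannot be told apart in such samples.

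After polyI:C, the signal of most proteasome genes was higher than in untreated HSCs of the same genotype, but in CDK6-/- samples no single member passed the test. In CDK6-/- samples 44 of 48 members had a higher mean signal after polyI:C, where 52.6% of all genes tested did. The highest differences in CDK6-/- samples were those of Psmg3 and Psmg1, chaperones that assemble the 20S core, Psmd8, a subunit of the 19S lid, and the catalytic subunits Psmb7 and Psmb8. The median difference was 0.69 log2 units for the 4 inducible genes and 0.37 for the 31 constitutive subunits, against 0.03 for all genes tested. These are differences of normalised log2 intensity, where 1 unit is a doubling.

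Psmb8, the inducible chymotrypsin-like subunit that replaces Psmb5, had a log2 signal of 12.58, 11.97 and 12.31 in the untreated CDK6-/- samples and of 13.06, 13.29 and 13.26 after polyI:C. Every polyI:C sample lay above every untreated sample. The difference was 0.92 (SE 0.32, 1.89-fold, limma adjusted p = 0.347, n = 3 per treatment). In the wild-type pool Psmb8 read 12.31, 12.37 and 12.24 untreated and 13.51, 13.46 and 13.75 after polyI:C, a difference of 1.27 (2.41-fold), with no overlap between hybridisations. Pool values are given without a test, since each pool is a single sample.

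Psmb10, the inducible trypsin-like subunit that replaces Psmb7, read 12.66, 12.43 and 12.26 in untreated CDK6-/- samples and 13.18, 13.23 and 13.39 after polyI:C. The groups did not overlap, and the difference was 0.82 (SE 0.30, 1.76-fold, limma adjusted p = 0.389). In the pool it read 12.39, 12.32 and 12.13 against 13.31, 13.42 and 13.78, a difference of 1.22 (2.34-fold). As for Psmb8, the difference in the pool was the larger one.

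Psmb9, which replaces Psmb6, read 12.20, 12.67 and 12.05 in untreated CDK6-/- samples and 12.80, 12.92 and 12.91 after polyI:C. The groups were apart by a narrow gap, set by untreated array 2, and the difference was 0.57 (SE 0.32, limma adjusted p = 0.611). The pool read 12.39, 12.38 and 12.14 against 13.01, 12.93 and 13.20, a difference of 0.74.

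Psme1, the alpha chain of the PA28 activator that opens the 20S core, was the inducible gene with the smallest difference in CDK6-/- samples. It read 13.28, 13.18 and 13.04 untreated and 13.65, 13.47 and 12.85 after polyI:C. The groups overlapped, because polyI:C array 3 lay below every untreated array, and the difference was 0.16 (SE 0.34, limma adjusted p = 0.937). Without polyI:C array 1 it was -0.0029. In the pool, where it read 13.09, 13.11 and 13.10 against 13.87, 13.72 and 13.49, the groups did not overlap and the difference was 0.59. The Psme2b probe used read 13.20, 13.36 and 13.09 in untreated CDK6-/- samples and 13.65, 13.92 and 13.70 after polyI:C, a difference of 0.54 (limma adjusted p = 0.612). Its other probes did not agree: their differences were 0.44 and -0.03 in CDK6-/- samples and 0.69 and -0.42 in the pool, where the probe used gave 0.53.

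The constitutive counterparts differed among themselves. Psmb7 read 10.85, 10.80 and 11.14 in untreated CDK6-/- samples and 11.66, 11.92 and 12.09 after polyI:C, with no overlap. Its difference of 0.96 (SE 0.31, 1.94-fold, limma adjusted p = 0.315) was close to that of Psmb8. In the pool Psmb7 had the highest difference of all 48 members, 1.54 (2.91-fold), from 10.66, 10.40 and 10.63 to 11.90, 11.95 and 12.47. Psmb5 read 12.76, 12.93 and 13.10 in untreated CDK6-/- samples and 13.49, 13.78 and 13.49 after polyI:C, a difference of 0.65 (limma adjusted p = 0.512), against 0.50 in the pool. Its second, dimmer probe gave 0.92 in CDK6-/- samples (limma adjusted p = 0.335 with each probe tested on its own) and 0.94 in the pool. Psmb6 read 13.25, 13.38 and 13.21 against 13.52, 13.59 and 13.49, a difference of 0.25 (limma adjusted p = 0.863), with 0.26 in the pool. All 3 counterparts had every polyI:C sample above every untreated one in both channels. In CDK6-/- samples the difference of Psmb7, and that of Psmb5 by its second probe, lay beside those of Psmb8 and Psmb10, while Psmb6 and Psme1 had the smallest of these 7 genes. The contrast between inducible genes and counterparts was not tested.

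**Figure D1:**
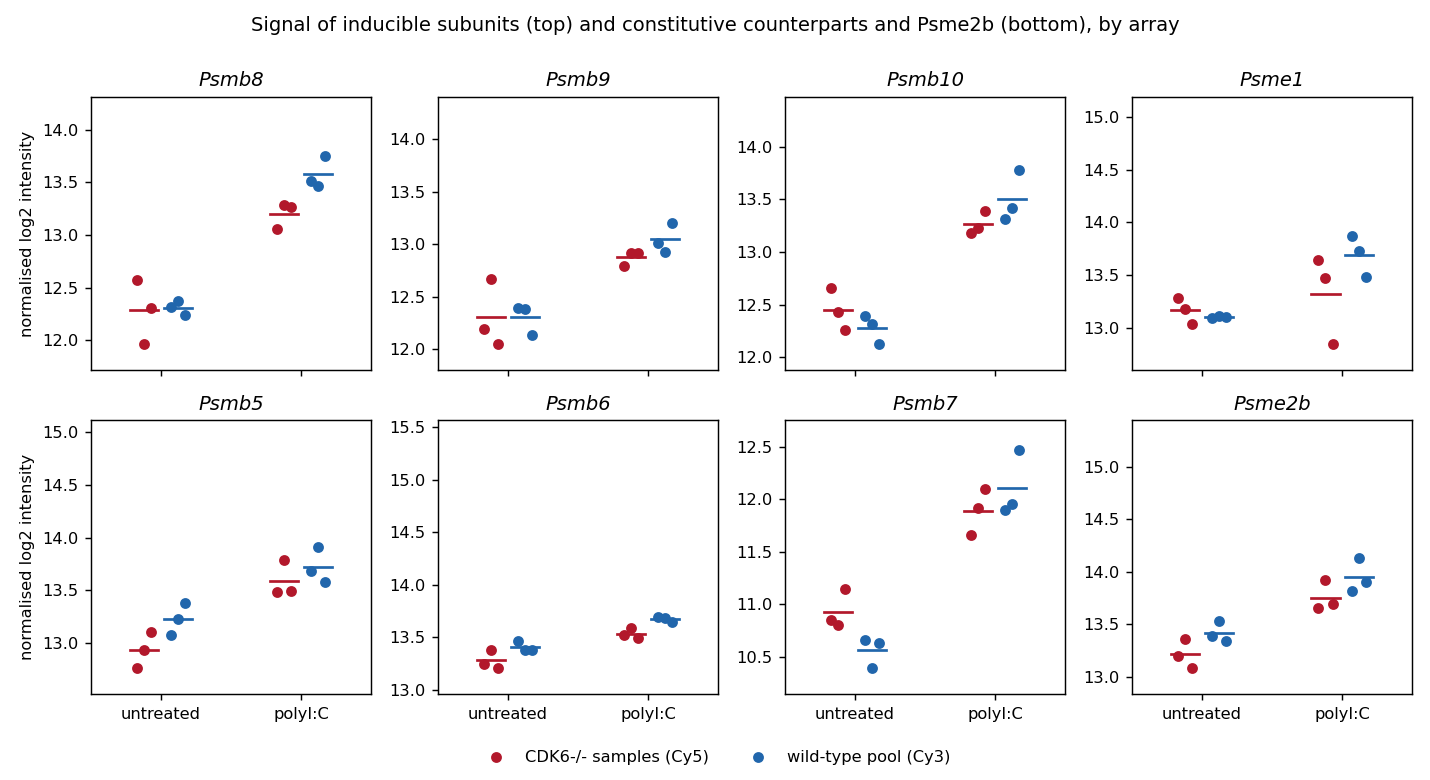
Normalised log2 intensity of the 4 inducible genes (top) and of the 3 constitutive counterparts and Psme2b (bottom) on each array, with CDK6-/- samples (Cy5, red) and the wild-type pool (Cy3, blue), horizontal bars at the mean of 3 arrays. Panels share the span of the vertical axis but not its start. The means of Psmb7 and Psmb8 lie 0.96 and 0.92 apart in CDK6-/- samples, and a polyI:C value of Psme1 lies below its untreated values in Cy5 (12.85).

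The promoters of an inducible pair and of one counterpart are shown because these genes are the classical example of interferon-driven against basal proteasome expression. They are the 250 bases before the annotated start from RefSeq (GRCm38.p6), written 5′ to 3′ on the strand of the gene, and capitals mark the motif named after each. Psmb8 lies at chr17:34197945-34198194 (plus strand) and capitals mark a GAS palindrome (TTCNNNGAA, an element of interferon-responsive genes). Psmb9 lies at chr17:34187331-34187580 (minus strand) and capitals mark an antioxidant core (TGANNNNGC, a loose form of the site of NRF1 and NRF2). Psmb5 lies at chr14:54617996-54618245 (minus strand), with capitals at the same core.
Psmb8: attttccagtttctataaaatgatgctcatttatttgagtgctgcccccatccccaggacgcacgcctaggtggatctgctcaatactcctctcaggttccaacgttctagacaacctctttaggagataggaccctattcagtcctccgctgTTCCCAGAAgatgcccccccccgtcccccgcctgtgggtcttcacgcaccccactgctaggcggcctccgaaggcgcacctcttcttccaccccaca
Psmb9: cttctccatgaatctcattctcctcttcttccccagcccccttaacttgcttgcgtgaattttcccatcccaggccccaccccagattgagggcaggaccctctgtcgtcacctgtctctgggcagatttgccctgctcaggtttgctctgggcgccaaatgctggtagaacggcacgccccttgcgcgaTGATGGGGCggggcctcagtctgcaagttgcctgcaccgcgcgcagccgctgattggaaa
Psmb5: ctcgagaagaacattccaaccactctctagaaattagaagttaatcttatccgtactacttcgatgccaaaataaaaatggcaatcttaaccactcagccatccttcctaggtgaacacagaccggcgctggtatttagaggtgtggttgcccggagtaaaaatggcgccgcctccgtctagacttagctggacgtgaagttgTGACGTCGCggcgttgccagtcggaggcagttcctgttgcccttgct

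The GAS match of Psmb8 began at position -97 relative to the start, the antioxidant cores of Psmb9 and Psmb5 at -60 and -47. Motifs were searched on both strands in the 250 bases before each start. Promoter windows were held for 42 of the 50 symbols on the arrays. With Psme2 added there were 47 member windows, since some genes have several starts. A GAS palindrome was found in 2 of the 47 member windows (Psmb8 and Psmg1) and in 7.02% of all 32851 windows. The interferon-stimulated response core (GAAANNGAAA) was found in 3 member windows (Psmb3, Psmd4 and Psmd9) and in 2.98% of all, and in none of the inducible genes. A kappaB core (GGGNNNTTCC) was found in 4 member windows and in 4.65% of all, the antioxidant core in 19 and in 35.2%, and CCAAT, the box of NF-Y, in 16 and in 33.8%. The Psmb9 window also holds CCAAT on the other strand at -8, apart from its antioxidant core. As shares of the member windows, these counts are 4.26%, 6.38%, 8.51%, 40.4% and 34.0%, in the order given. Those of the last 2 motifs lie near the shares of all promoters. Those of the others rest on 2 to 4 windows each, and the share of GAS is lower in members than in all promoters. A match is a string of letters, not a measured site.

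Among the other roles, the 4 chaperones that build the 20S core (Psmg1 to Psmg4) had the highest median difference in CDK6-/- samples, 0.90. Psmg3 was the member with the highest difference there. It read 9.53, 9.97 and 9.81 untreated and 11.01, 11.22 and 10.84 after polyI:C, a difference of 1.25 (SE 0.31, 2.38-fold, limma adjusted p = 0.186), with a clear gap between groups. Psmg1 read 10.10, 11.37 and 10.99 against 11.96, 12.02 and 11.77, a difference of 1.09 (SE 0.39, limma adjusted p = 0.359). In the pool the same chaperones had a median difference of 1.04, and all 4 had every polyI:C value above every untreated one. Psmg1 (1.14) and Psmg2 (1.12) were among the highest there after Psmb7, Psmb8 and Psmb10.

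In the 19S cap, the 11 non-ATPase subunits had a median difference of 0.52 in CDK6-/- samples and 0.55 in the pool, and the 6 ATPases 0.40 and 0.42. Psmd8, a lid subunit, read 11.02, 11.32 and 10.69 in untreated CDK6-/- samples and 12.18, 12.15 and 11.90 after polyI:C. It was the third highest member, with 1.07 (SE 0.32, limma adjusted p = 0.271), and its groups did not overlap. The lowest values in CDK6-/- samples were those of Psme3, a nuclear PA28 form (-0.18), Psmd5, a 19S assembly chaperone (-0.17), and Psmd2, a base subunit that docks ubiquitin shuttles (-0.03). In the 20S core the 7 alpha subunits had a median of 0.27 in CDK6-/- samples and 0.57 in the pool. The 4 remaining beta subunits, Psmb1 to Psmb4, lay close together, between 0.27 and 0.38 in CDK6-/- samples and between 0.26 and 0.34 in the pool.

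The 3 chaperones of the 19S base (Psmd5, Psmd9 and Psmd10) had no common shift, with a median of 0.13 in CDK6-/- samples and -0.15 in the pool. The lowest members of the pool were Psmd9 (-0.44), Psmd5 (-0.15) and Psme4, the PA200 activator (-0.04). The value of Psmd9 rests on its probe. The brighter probe read 10.56, 9.97 and 9.77 in the untreated pool and 9.20, 9.33 and 10.47 after polyI:C, an SD of 0.41 and 0.70 between hybridisations of 1 pool. Its second probe gave a difference of 1.07 in the pool and 1.68 (limma adjusted p = 0.123 with each probe tested on its own) in CDK6-/- samples, where the first gave 0.30. In untreated CDK6-/- samples the second probe was above background on 2 of 3 arrays, so its difference there rests in part on a signal near background. The probes of Psme4 also had opposite signs in CDK6-/- samples, 0.23 and -0.39.

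**Figure D2:**
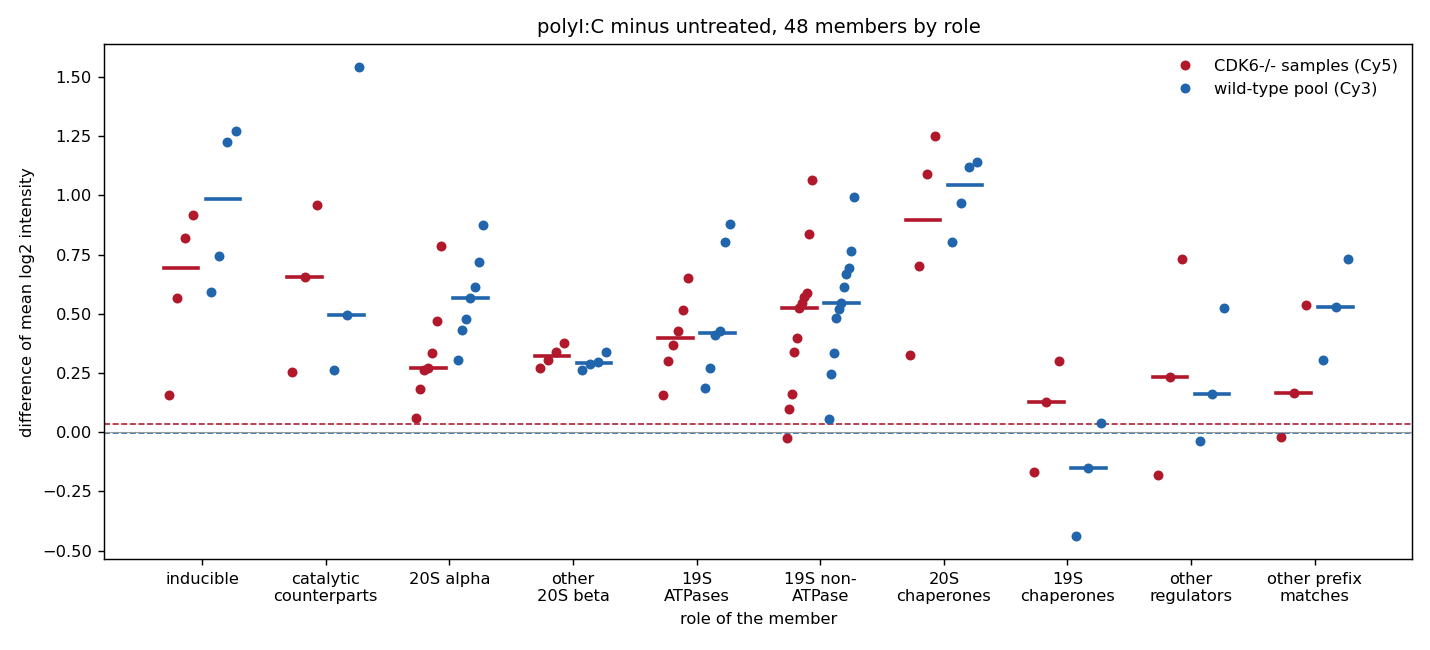
Difference of mean log2 intensity, polyI:C minus untreated, for the 48 tested members grouped by role, in CDK6-/- samples (red) and the wild-type pool (blue). Each point is a gene, short bars are medians of the role, and dashed lines are the medians of all genes tested (0.03 in CDK6-/- samples and near 0 in the pool). The 20S chaperones and the inducible genes have the highest medians in the pool, 1.04 and 0.98, and the 19S chaperones the lowest, -0.15.

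None of the 48 members passed in CDK6-/- samples under limma, which models the spread of each gene with information from all genes, after Benjamini-Hochberg adjustment over the 22630 genes at a threshold of 0.05. The background was low: 37 genes passed in all, 0.163%, with 0.106% higher and 0.0574% lower. At an unadjusted p under 0.05 there were 7 members (14.6%), all higher after polyI:C: Psmb7, Psmb8, Psmb10, Psmd8, Psmd11, Psmg1 and Psmg3. Among all genes tested 2326 (10.3%) reached it in either direction, and 1225 of these were higher after polyI:C. The count of members rested on single arrays. It was 17 without polyI:C array 3 (17.1% of all genes), 4 without polyI:C array 1 (7.49%) and 3 without polyI:C array 2 (7.71%), and Psmb7, Psmd8 and Psmg3 were among those that passed in each of the latter 2. Missing the threshold does not show that a level was the same in both treatments. By the simpler reading of overlap, 21 of 48 members had every polyI:C sample above every untreated one, where 9.15% of all genes did. None had every polyI:C sample below, where 7.67% of all genes did. Of these 21, 3 were inducible (Psmb8, Psmb9 and Psmb10), 14 constitutive subunits, 2 were 20S chaperones (Psmg1 and Psmg3), and the rest were Psmf1, an inhibitor of the 20S core, and Psme2b. In the wild-type pool 45 of 48 members had a higher mean signal, where 49.8% of all genes did. There, 33 members had every polyI:C hybridisation above every untreated one (19.2% of all genes) and none had every one below (23.1% of all genes).

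A single array set much of that count. PolyI:C array 3 had a lower signal for the constitutive subunits: their median difference from the untreated mean was 0.47, 0.60 and 0.14 on polyI:C arrays 1, 2 and 3 of CDK6-/- samples. The inducible genes gave 0.61, 0.70 and 0.77 on the same arrays. Without polyI:C array 3, 35 members had every remaining polyI:C sample above every untreated one, and without it and untreated array 3 there were 40. With fewer arrays this is easier to meet for any gene, and the shares of all genes were 19.6% and 26.6%. Within slide 1 the median differences in CDK6-/- samples were 0.64 for inducible genes and 0.45 for constitutive subunits, and within slide 2 they were 0.55 and 0.54. All 4 inducible genes were higher after polyI:C within both slides. Slide 3 held a single array and gives no such value.

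**Figure D3:**
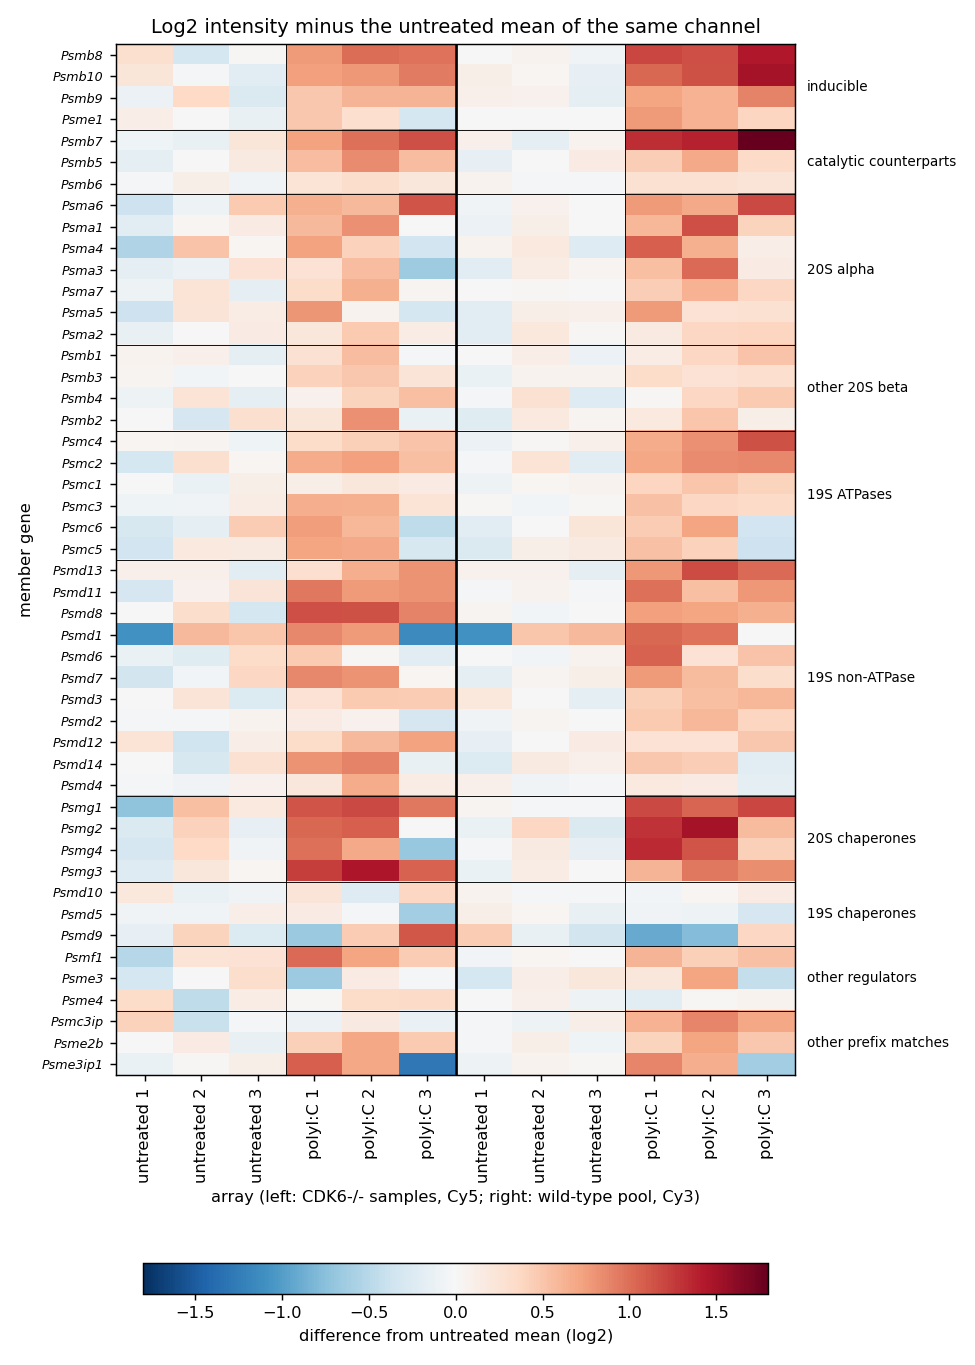
Log2 intensity of each of the 48 tested members on each array, minus the mean of the untreated arrays of the same channel (blue lower, red higher, scale ending at 1.8), with CDK6-/- samples on the left and the wild-type pool on the right. Genes are grouped by role and sorted by the pool's difference. Colours pale on polyI:C array 3 among the constitutive subunits of CDK6-/- samples (median 0.14 there) but not in Psmb8, Psmb9 and Psmb10, and Psmd1 is low on untreated array 1 and polyI:C array 3 in Cy5.

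Genes outside the prefix gave a frame for these values. Of the antigen processing and interferon list, 16 genes were tested. In CDK6-/- samples 13 had a higher mean after polyI:C, 4 of them at an unadjusted limma p under 0.05. After adjustment 2 passed, both higher. Irf7, the amplifier of type I interferon expression, went from 9.88, 9.49 and 9.24 to 12.85, 13.07 and 13.06, a rise of 3.46 (SE 0.32, limma adjusted p = 0.011), and Usp18, a brake on interferon signalling, rose by 2.74 (SE 0.31, limma adjusted p = 0.019). In the pool these 2 differed by 3.62 and 3.10. Tap1, a subunit of the peptide transporter encoded beside Psmb9, differed by 0.94 in CDK6-/- samples (limma adjusted p = 0.567) and by 1.36 in the pool. Nlrc5, the activator of MHC class I genes, differed by 0.25 (limma adjusted p = 0.885) and 1.07. Irf1, which drives Psmb9 and Tap1 in interferon responses, was lower, by -0.63 (limma adjusted p = 0.538) and -0.26.

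Of 26 cofactors and regulators of the proteasome, 23 were tested, and none passed between treatments in CDK6-/- samples, nor did any reach an unadjusted p under 0.05. Their median difference was 0.02 in CDK6-/- samples and 0.16 in the pool, against 0.35 and 0.52 for the 48 members. Nfe2l1, which encodes the factor that restores proteasome genes when activity is short, differed by 0.60 (limma adjusted p = 0.579) and 0.16. Nfe2l2, the factor of the oxidative stress response, differed by -0.45 (limma adjusted p = 0.823) and -0.32. Pomp, the maturation protein of new 20S cores, differed by 0.25 (limma adjusted p = 0.934) and 0.23. Between the untreated genotypes, 1 of the 23 was lower in CDK6-/- HSCs under the loess correction (limma adjusted p = 0.048). Of all genes tested, 9.93% were lower in that comparison.

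Between genotypes, in untreated HSCs, the immunoproteasome genes lay near the wild-type pool and 3 members were lower in CDK6-/- HSCs under the loess correction, whereas 15 other members were higher, and none lower, under median centring. The median genotype ratio (log2, CDK6-/- over wild type) was 0.03 for inducible genes, -0.11 for constitutive subunits and -0.05 for all genes tested. With arrays centred on their median in place of the intensity-dependent (loess) correction, these medians were 0.65, 0.51 and 0.30, and genes above percentile 80 of mean intensity, where 31 of the 48 members lie, had a median of 0.61. The direction of the family against wild type thus depends on the scaling. Under the loess correction the mean ratio was below 0 for 29 of 48 members (54.7% of all genes), and 20 lay below 0 on all 3 arrays (28.2% of all genes), none of them inducible and 12 of them constitutive subunits.

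Markers of other cell types differed between the untreated genotypes as well. The 6 B lineage markers had a median ratio of -1.61, with 5 lower by limma, and a summed log2 signal of 12.54-13.33 in CDK6-/- samples and 14.51-14.71 in the pool. The 3 eosinophil markers had a median of -2.42, all 3 lower, with sums of 11.84-12.89 and 15.03-15.29. Of the 5 stromal and endothelial markers tested, 4 were lower (median -1.43), with sums of 11.30-11.83 and 12.71-12.82. These 3 lists kept a median below 0 under median centring (-1.25, -1.91 and -0.995). The 7 granulocyte markers had a median of -0.80, with 3 lower and sums of 16.99-17.66 and 18.04-18.54, but 0.20 and no call under median centring. Of the 6 erythroid markers 3 were lower (median -0.89), with sums of 13.58-13.98 and 14.59-14.76. Under median centring 1 erythroid marker was lower (median -0.30). Of the 4 megakaryocyte markers 2 were lower (median -0.70), with sums of 11.81-13.38 and 12.88-12.96. Under median centring 1 megakaryocyte marker was lower (median -0.35). None of the 8 T and NK cell markers passed (median -0.23), but 1 was lower under median centring (median -0.10). The 5 monocyte and macrophage markers tested lay below 0 (median -0.27, 1 lower) but had a median of 0.18 under median centring. None of the 10 HSC and progenitor markers passed under the loess correction (median 0.19), but 5 were higher under median centring (median 0.74). The part of these markers in the ratios of the members was not tested.

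Psmb8 had ratios of 0.27, -0.40 and 0.07 on the untreated arrays (mean -0.02, SE 0.19, limma adjusted p = 0.952). Psmb9 had -0.19, 0.29 and -0.08 (mean 0.003, limma adjusted p = 0.993). Psmb10 had 0.27, 0.11 and 0.13 (mean 0.17, limma adjusted p = 0.535), the one inducible gene above wild type on all 3 arrays. Psme1, read from 10 spots of a single probe per array, had 0.19, 0.07 and -0.07 (mean 0.07, limma adjusted p = 0.838). Among counterparts, Psmb5 had -0.31, -0.30 and -0.28 (mean -0.30, limma adjusted p = 0.248), a close set below 0 that turned to a mean of 0.38 under median centring. Psmb6 had -0.21, 0.00 and -0.17 (mean -0.13, limma adjusted p = 0.647). Psmb7 had 0.19, 0.40 and 0.51 (mean 0.37, limma adjusted p = 0.184). Psme2b had -0.19, -0.17 and -0.25 (mean -0.20, limma adjusted p = 0.436).

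The 3 members that passed under the loess correction, all lower in CDK6-/- HSCs, were 19S genes. They are 6.25% of the 48, where 13.0% of all genes tested passed, 9.93% lower and 3.05% higher. Psmd9, the base chaperone, had ratios of -1.65, -0.51 and -0.96 (mean -1.04, SE 0.25, limma adjusted p = 0.024). Psmd7, a lid subunit that pairs with the deubiquitinase Psmd14, had -0.87, -0.80 and -0.44 (mean -0.70, SE 0.18, limma adjusted p = 0.032). Psmd12, a lid scaffold subunit, had -0.28, -1.05 and -0.70 (mean -0.68, SE 0.19, limma adjusted p = 0.041). Their ratios lay below 0 on all 3 arrays. The second probes of Psmd9 and Psmd12 gave -0.17 and 0.02. Over the 15 alternatives, the limma adjusted p ran from 0.021 to 0.145 for Psmd9, from 0.024 to 0.635 for Psmd7 and from 0.037 to 0.588 for Psmd12, and the call held in 9, 8 and 5 of them. Under median centring none of the 3 passed, with means of -0.68 (Psmd9), -0.16 (Psmd7) and -0.17 (Psmd12). Instead 15 members passed, all higher in CDK6-/- HSCs, where 21.5% of all genes passed higher and 5.88% lower. They were Psmb10 and Psme1 of the inducible genes, the counterparts Psmb6 and Psmb7, the alpha subunits Psma3, Psma4 and Psma7, the 19S subunits Psmc1, Psmd2, Psmd6 and Psmd13, the activator Psme3, the chaperones Psmg2 and Psmg4, and Psmc3ip. Without untreated array 1 the mean of Psmd9 was -0.73. Without untreated array 3 no member passed, and 1 passed without untreated array 1, untreated array 2, polyI:C array 1 or polyI:C array 2. The highest untreated ratios were those of Psmg4 (0.64, limma adjusted p = 0.061), Psmd6 (0.39) and Psmg2 (0.37).

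After polyI:C, CDK6-/- HSCs had lower signal than the treated pool for most members under the loess correction, without any call, and higher signal under median centring, with 5 calls. The mean ratio was below 0 for 45 of 48 members, where 52.8% of all genes lay below 0, and above 0 for 43 of 48 under median centring. The ratio was below 0 on all 3 arrays for 31 of 48, where 21.5% of all genes were, and for none under median centring. The median ratio was -0.30 for inducible genes, -0.17 for constitutive subunits and -0.02 for all genes, and under median centring 0.48, 0.42 and 0.21, with 0.60 for genes above percentile 80 of intensity. Under limma no member passed with the loess correction, where 0.968% of all genes did, 0.318% higher and 0.650% lower. Under median centring 5 members passed, all higher in CDK6-/- HSCs (Psmb4, Psmb5, Psmb6, Psme2b and Psme3), where 10.4% of all genes passed higher and 1.05% lower. With the loess correction 4 members (8.33%) reached an unadjusted limma p under 0.05, where 13.4% of all genes did. With Agilent's own processed signals no member passed, and 29 of 48 lay below 0 on all 3 arrays. Under the loess correction all 7 granulocyte markers lay above 0 in this comparison (median 0.86, none passed). Under median centring all 7 passed higher (median 1.62). Of the 5 monocyte and macrophage markers tested, 4 lay above 0 (median 0.85, 1 higher), with 3 higher under median centring (median 1.03). Lower were 3 of 6 erythroid markers (median -1.16), and 4 under median centring (median -0.94). None of the 4 megakaryocyte markers passed (median 0.04), but 2 were higher under median centring (median 0.66). Median centring also gave 2 of 10 HSC and progenitor markers higher (median 0.40) and 1 of 5 dendritic markers (median 0.30). The part of these markers in the ratios of the members was not tested.

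All 4 inducible genes lay below the pool on each polyI:C array under the loess correction. Psmb8 had ratios of -0.46, -0.17 and -0.49 (mean -0.37, limma adjusted p = 0.425), Psmb9 -0.22, -0.01 and -0.29 (mean -0.17, limma adjusted p = 0.720), and Psmb10 -0.13, -0.19 and -0.39 (mean -0.24, limma adjusted p = 0.588). Psme1 had -0.22, -0.25 and -0.64 (mean -0.37, limma adjusted p = 0.389). Counterparts were below 0 as well, Psmb5 with -0.19, -0.13 and -0.09, Psmb6 with -0.17, -0.09 and -0.15, and Psmb7 with -0.24, -0.04 and -0.37. Under median centring the means of these 7 genes were all above 0, between 0.26 and 0.71. The lowest members were Psmd7 (-0.68, limma adjusted p = 0.133), Psmd12 (-0.47) and Psmd2 (-0.42), with Psmd5 at -0.42 too. The highest were Psmd4, a ubiquitin receptor (0.03), Psmg3 (0.02) and Psma7, an alpha subunit (0.02). Probes of Psmd9 had opposite signs here, -0.30 and 0.44, and so did those of Psme2b, -0.19, -0.51 and 0.14.

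**Figure D4:**
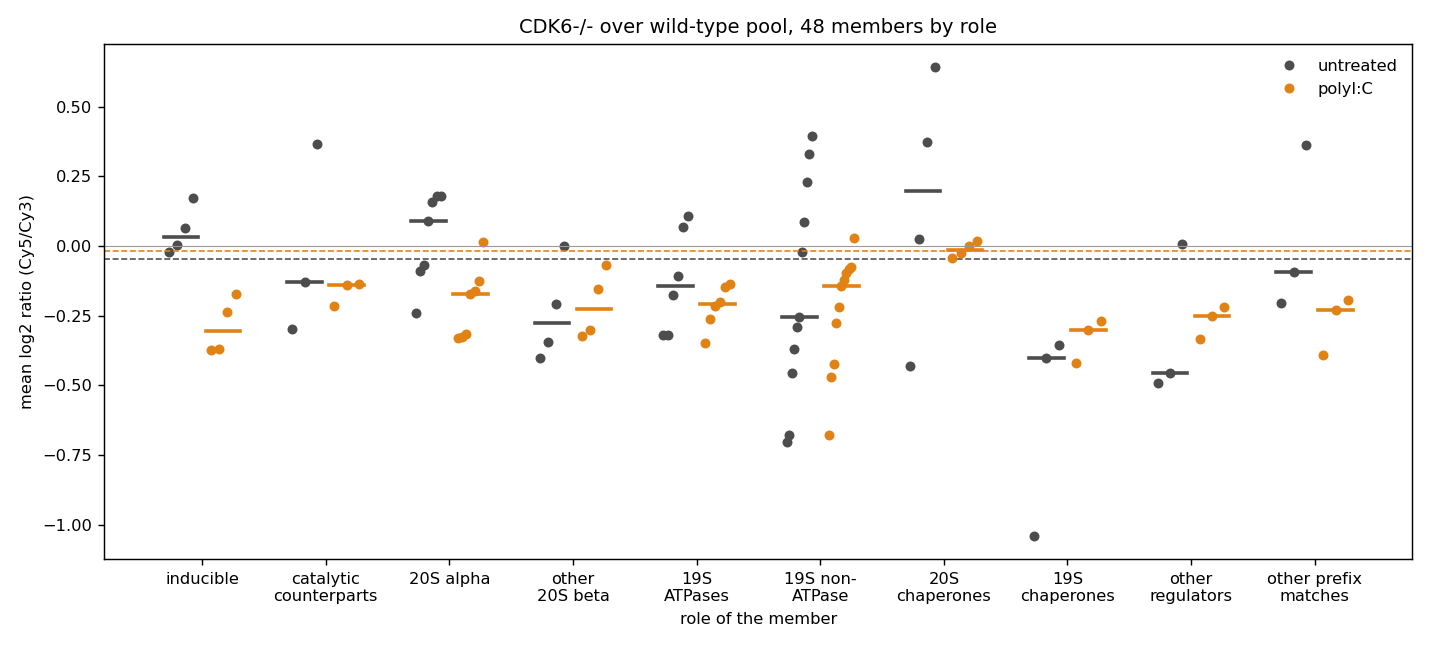
Mean log2 ratio of CDK6-/- to the wild-type pool for the 48 tested members by role, untreated (grey) and after polyI:C (orange), loess-corrected. Each point is a gene, short bars are medians of the role, and dashed lines are the medians of all genes tested (-0.05 untreated, -0.02 after polyI:C). The inducible genes go from a median of 0.03 to -0.30, and 45 of 48 members lie below 0 after polyI:C, whereas 43 lie above 0 under median centring.

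The repeated spots of Psme1 showed how far the printing and scanning of an array spread a ratio. They read the same pair of samples on each array, so their SD holds no spread between samples. Over its 10, 9 and 10 usable spots on the untreated arrays, the SD within an array was 0.094, 0.13 and 0.080. Over 10, 9 and 8 spots on the polyI:C arrays it was 0.087, 0.088 and 0.056. Array means ran from -0.07 to 0.19 untreated and from -0.64 to -0.22 after polyI:C, with polyI:C array 3 lowest.

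**Figure D5:**
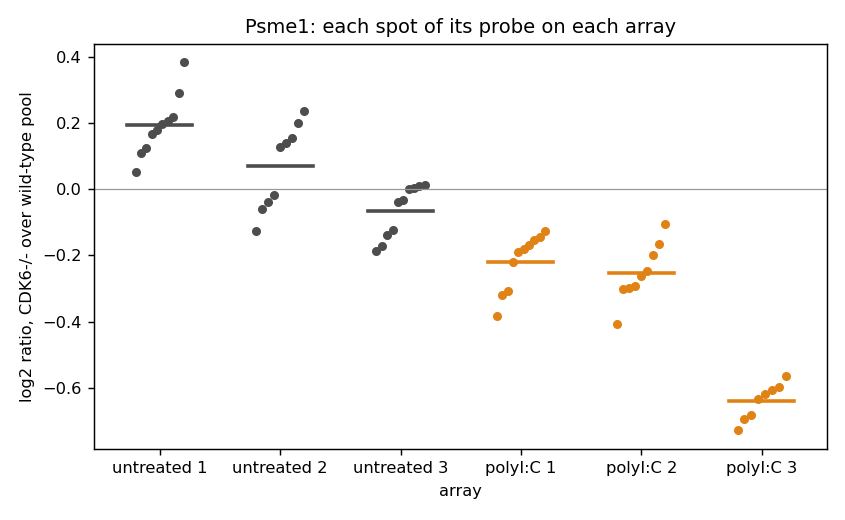
Log2 ratio of CDK6-/- to the wild-type pool at each usable spot of the Psme1 probe, by array, untreated (grey) and polyI:C (orange), with bars at the array mean. Spots of one array lie close together (SD 0.056 to 0.13), and polyI:C array 3 sits lowest, at -0.64.

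The question whether loss of CDK6 altered the response to polyI:C is carried by the difference of the ratios between treatments. It equals the difference in CDK6-/- samples minus that in the pool. No member passed (1.79% of all genes did, 1.60% higher and 0.199% lower), and 3 members reached an unadjusted p under 0.05 (6.25%), where 16.5% of all genes did. The median difference was -0.38 for inducible genes, -0.07 for constitutive subunits and 0.04 for all genes, and -0.15 for inducible genes under median centring. By gene it was -0.35 for Psmb8 (limma adjusted p = 0.557), -0.18 for Psmb9 (limma adjusted p = 0.786), -0.41 for Psmb10 (limma adjusted p = 0.420) and -0.44 for Psme1 (limma adjusted p = 0.410). Within slide 1 Psmb8 gave -0.63 and within slide 2 0.23, and its untreated ratio was lowest on array 2. For the counterparts it was 0.16 for Psmb5, -0.01 for Psmb6 and -0.58 for Psmb7 (limma adjusted p = 0.253).

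The lowest members were Psmc3ip (-0.75, limma adjusted p = 0.182), Psmg4 (-0.64, limma adjusted p = 0.290) and Psmb7. The highest were Psmd9 (0.74, limma adjusted p = 0.334), Psmg3 (0.45) and Psmd8 (0.37). The ratios of 13 of 48 members lay, on all polyI:C arrays, below all untreated arrays (8.44% of all genes), and those of 3 above (14.3% of all genes). In the untreated comparison of genotypes, Irf8 of the interferon list, a factor of monocyte and dendritic cell fate, was lower (-0.98, limma adjusted p = 0.035), but not under median centring (-0.54, limma adjusted p = 0.138). Nlrc5 just missed the threshold (0.57, limma adjusted p = 0.0502) and was higher under median centring (0.98, limma adjusted p = 0.00434). In this comparison every marker list given above had a median below 0 under the loess correction, except the HSC and progenitor list. Of the 5 dendritic markers tested, 2 were lower and 1 higher there (median -0.45). Under median centring 2 dendritic markers were higher and none lower (median 0.11). The part of these markers in the Irf8 ratio was not tested. In the polyI:C comparison of genotypes Irf8 was higher under median centring (0.85, limma adjusted p = 0.049). Under the loess correction none of the 16 genes of the interferon list passed there.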

How the data were processed

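RNA of the 6 CDK6-/- samples and 2 wild-type pools was amplified (WTA2), labelled with Cy5 or Cy3 through a platinum dye and hybridised to 6 two-colour Agilent arrays, per the labels' protocols. Per the file headers, the authors read each array with Agilent Feature Extraction 11.5.1.1 on an array annotated on mm9 (NCBI37), and deposited median spot and background intensity, processed intensity and a log10 ratio per spot. The deposited table of log2 ratios differed from log2 of processed Cy5 over Cy3 by at most 2.5e-06, with array medians from -0.04 to 0.22. It stands as an alternative.

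Signals were corrected by normexp (offset 50), then loess within arrays gave ratios, and Aquantile scaling between arrays gave channel levels (R 4.3.3, limma 3.58.1). Outlier spots (0.657%) were left out, and no spot was saturated. A probe was kept where either channel stood above background throughout the 3 arrays of at least 1 treatment. RefSeq names were found for 22244 of 23839 accessions (table of GRCm38.p6). Each test used lmFit and eBayes over all 22630 genes with Benjamini-Hochberg adjustment. The number of arrays limits the precision, and where replicates share a culture or animal is not stated in the labels, so p-values measure the spread between these samples.

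Named genes are the inducible members and counterparts, all members past the threshold, and the 3 highest and 3 lowest members per comparison. Genes whose probes disagree in sign by over 0.5 are named too. From the lists of other genes, some fixed ones and those past the threshold are named, except 1 cofactor given as a count. Members and lists were chosen with earlier results of these data known. The fits were repeated with median centring, processed signals, offset 10, other filters and probe rules, slide blocks, and each array left out.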

Additional observations from a re-analysis of the deposited data

Results flagged for a closer look

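For 4 members the ratio of CDK6-/- to wild type was above 0 on all untreated arrays and below 0 on all polyI:C arrays under the loess correction, and for each the difference of the ratios (polyI:C minus untreated) was tested with limma over all genes without passing. Of all genes tested, 2.40% had this pattern of signs, and 4.24% had the opposite one, which no member had. Psmb10, the inducible trypsin-like subunit, went from 0.27, 0.11 and 0.13 to -0.13, -0.19 and -0.39, a difference of -0.406 (limma adjusted p = 0.420). Psmb7, its constitutive counterpart, went from 0.19, 0.40 and 0.51 to -0.24, -0.04 and -0.37, a difference of -0.583 (limma adjusted p = 0.253). Psmd2, a base subunit of the 19S cap, went from 0.12, 0.01 and 0.14 to -0.25, -0.43 and -0.59, a difference of -0.509 (limma adjusted p = 0.310). Psmc3ip, the recombination factor taken by the prefix, went from 0.80, 0.06 and 0.24 to -0.36, -0.35 and -0.46, a difference of -0.753 (limma adjusted p = 0.182). Under median centring no member lay below 0 on all polyI:C arrays, so the opposite signs are lost for these 4 as well.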

How the results depend on the processing

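No paired analysis was possible because array numbers follow accession order and the labels give no number that ties samples of different groups. Slides, which hold samples of both treatments, entered instead as blocks and as within-slide values. No member passed in the polyI:C effect within CDK6-/- or in the difference of ratios under any alternative. Untreated members called were 15, all higher, under median centring, 0 with processed signals, 1 with the mean of probes, 1 without both arrays numbered 3, and 0 to 4 with 1 array left out. Median centring gave untreated medians of 0.65 (inducible) and 0.51 (constitutive), and processed signals a constitutive median of -0.022. After polyI:C it gave 5 calls, medians of 0.48 and 0.42, and 0 members below 0 on all arrays, and it moved the inducible difference of ratios to -0.15. The median of all genes moved with it, to 0.30 untreated and 0.21 after polyI:C; the cause was not tested. Untreated means turned to 0.53 (Psmb8), 0.38 (Psmb5), 0.60 (Psmb6) and 0.52 (Psme2b). PolyI:C means turned to 0.42 (Psmb8), 0.52 (Psmb9), 0.56 (Psmb10), 0.44 (Psme1), 0.71 (Psmb5), 0.70 (Psmb6), 0.26 (Psmb7) and 0.70 (Psme2b). Values near 0 changed sign too: untreated Psmb8 to 0.10 with processed signals. With 1 array left out it ran from -0.17 (without untreated array 1) to 0.17 (without untreated array 2), and Psmb9 from -0.14 to 0.10 (without untreated arrays 2 and 1). The Psme1 difference in CDK6-/- ran from -0.0029 (without polyI:C array 1) to 0.39 (without polyI:C array 3). The difference of ratios of Psmb6 became 0.098 (median centring), and ran from -0.053 to 0.055 with 1 array left out, with 0.0056 without polyI:C array 1. That of Psme2b became -0.0084 (processed signals), -0.017 (offset 10) and -0.0068 (without both arrays 3), and ran from -0.013 to 0.026 with 1 array left out, with -0.0036 without polyI:C array 1. The constitutive difference of ratios was 0.082 without both arrays 3 and 0.044 within slide 2. Median centring of each channel raised the polyI:C medians to 0.94 (inducible) and 0.59 (constitutive) in CDK6-/- and to 1.26 and 0.74 in the pool. Without both arrays 3 the inducible medians were 0.53 and 0.84, and the CDK6-/- one was 0.55 within slide 2. The constitutive pool median was 0.56 within slide 1. Non-overlap in CDK6-/- counted 40 members without both arrays 3 and 21 to 35 with 1 array left out; these counts were chosen after seeing the data. Of the checks of these summaries, 217 stayed near the main value and 29 moved. Nearness was judged by the ratio of counts or, for medians, by the spread between arrays, and sign was not part of this rule. Of the further checks, of single genes and other counts, 804 stayed the same and 61 moved. In 24 the sign changed, in 23 a call was lost and in 3 a call was gained.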

Other observations

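Markers of other cells between treatments (polyI:C minus untreated), as values: all 6 B lineage markers were above background in untreated samples of both genotypes, and 2 (CDK6-/-) and 4 (pool) after polyI:C, with a median difference of -1.23 and -2.73. The 3 eosinophil markers differed by a median of -0.63 in CDK6-/- samples and -3.64 in the pool, the 6 erythroid markers by -0.91 and -0.22, the monocyte and macrophage markers by -0.22 and -1.57, the dendritic markers by -0.24 and -0.17, the granulocyte markers by 0.18 and -1.93, and the stromal and endothelial markers by -0.74 and -2.03. The 10 HSC markers differed by -1.07 and -0.86, the T and NK cell markers by 1.41 and 1.01, and the megakaryocyte markers by 2.75 and 1.54. No list was at background throughout.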
